A study of Mus musculus with 120 samples.

Results

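The genes described here lie on mouse chromosome 10, an autosome that no strain of this panel received from MSM apart from MSM itself. They were taken as every probe set with a single gene symbol whose gene the GRCm38 annotation places on chromosome 10, with the probe set of highest mean kept for each gene and with Vnn1 and Vnn3 left out. This gave 858 genes of 18194 on the array, from 1654 probe sets, and 444 of them had several probe sets. Of the 858 genes, 584 passed a filter on low signal and were tested, among 11949 genes in all. The other 274 genes were too dim on the array to be tested.

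Liver RNA of 60 male mice, 10 weeks old and fasted for 4 h, was hybridised to 120 Affymetrix Mouse Genome 430 2.0 arrays, with 2 males per strain and 2 arrays per male. The labels do not say that arrays with the same animal number are of the same male, and this was assumed. B6 (C57BL/6J) is the common laboratory strain and the control. MSM is an inbred strain of Japanese wild origin and carries MSM alleles on every chromosome, chromosome 10 included. The other 28 strains were consomic, meaning that 1 chromosome of B6, the C or T part of one, or the mitochondrial DNA came from MSM. They are written here as in the labels, so that B6-Chr13CMSM carries the C part of chromosome 13 and B6-mtMSM the mitochondrial DNA. None of them carries an MSM chromosome 10. Thus 58 males of 29 strains had a B6 chromosome 10 and the 2 MSM males did not, and a chromosome 10 gene that differs in a consomic strain does so at a distance from the substituted segment. In MSM, effects of chromosome 10 itself and of the rest of the genome cannot be told apart.

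As background, a DNA difference near a gene can change the transcript from its own chromosome (a local, or cis, effect), while a difference elsewhere can act through a diffusible product such as a transcription factor or a metabolite (a distant, or trans, effect). A consomic panel separates these cases, since a local difference travels with its chromosome. Mouse chromosome 10 holds genes of hepatic metabolism, among them the liver-type phosphofructokinase of glycolysis, a peroxisomal import receptor and a tandem array of short-chain dehydrogenases that oxidise retinol and steroids.

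In MSM the tested genes of that tandem array were all lower, as described further on, so the bases upstream of these 5 neighbours are shown. Each line gives 250 bases before the annotated start, 5′ to 3′ on the gene's strand, from RefSeq (GRCm38.p6). The window of Rdh9 is at chr10:127776155-127776404 on the + strand and Rdh16f2 at chr10:127866226-127866475 on the + strand. Rdh7 is at chr10:127889248-127889497 on the − strand, Sdr9c7 at chr10:127898285-127898534 on the + strand, and Hsd17b6 at chr10:128007612-128007861 on the − strand. For Rdh7 and Hsd17b6, 2 starts are listed and the first listed is shown. Capitals mark matches, on either strand, to TATAAA (an element of core promoters), CCAAT (bound by the factor NF-Y), AGGTCA (core site of nuclear receptors) and TGTTTAC (site of forkhead factors).
Rdh9: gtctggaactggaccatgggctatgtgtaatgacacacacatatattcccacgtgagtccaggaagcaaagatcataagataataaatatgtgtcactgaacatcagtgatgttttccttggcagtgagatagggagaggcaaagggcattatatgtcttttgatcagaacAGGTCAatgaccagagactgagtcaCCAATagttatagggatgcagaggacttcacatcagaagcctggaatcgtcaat
Rdh16f2: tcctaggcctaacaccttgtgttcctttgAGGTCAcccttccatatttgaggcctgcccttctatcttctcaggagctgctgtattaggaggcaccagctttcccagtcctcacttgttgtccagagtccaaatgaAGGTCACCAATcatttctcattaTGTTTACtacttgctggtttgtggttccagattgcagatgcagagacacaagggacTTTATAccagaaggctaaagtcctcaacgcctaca
Rdh7: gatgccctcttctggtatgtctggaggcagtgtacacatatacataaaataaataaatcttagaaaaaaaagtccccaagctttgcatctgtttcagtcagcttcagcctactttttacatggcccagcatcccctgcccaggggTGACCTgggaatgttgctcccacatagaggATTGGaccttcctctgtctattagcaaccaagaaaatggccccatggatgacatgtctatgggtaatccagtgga
Sdr9c7: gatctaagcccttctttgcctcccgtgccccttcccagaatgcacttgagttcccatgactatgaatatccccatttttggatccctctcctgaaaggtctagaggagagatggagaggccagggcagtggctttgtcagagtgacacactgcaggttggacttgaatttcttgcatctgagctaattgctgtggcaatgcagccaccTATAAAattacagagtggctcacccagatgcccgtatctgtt
Hsd17b6: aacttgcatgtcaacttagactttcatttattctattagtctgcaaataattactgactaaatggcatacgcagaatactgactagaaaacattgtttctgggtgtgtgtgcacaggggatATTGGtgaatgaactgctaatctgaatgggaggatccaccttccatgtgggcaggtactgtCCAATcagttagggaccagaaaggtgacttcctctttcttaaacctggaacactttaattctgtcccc

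The AGGTCA core was present upstream of 3 of these 5 genes (Rdh9, Rdh16f2 and Rdh7), and 14% of all 32851 such RefSeq windows hold it on either strand. CCAAT occurred in 4 of the 5, against 33.8% of all windows, TATAAA in 2 of the 5, against 12.4%, and TGTTTAC in Rdh16f2, against 3.17%. In Rdh16f2 an AGGTCA directly adjoins a CCAAT, starting 114 bases before the annotated start. Aligned end to end, the 5 windows were 51.2% to 55.3% identical in pairs (10 pairs, median 52.9%). The same windows aligned with those of 62 other tested chromosome 10 genes, every 8th along the chromosome, were 45.1% to 55.6% identical (median 50.5%), so the upstream regions shared little sequence. These matches describe letters and say nothing of binding.

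All values are the authors' deposited log2 signals. Deviations on this scale appear compressed, and more for some probe sets than for others, so the difference of a gene is read against its own spread and is not a fold change. To set genes side by side, differences are also given in residual SDs, the spread between males of the same strain for that gene. A gene is called at an adjusted p below 0.05 (limma, Benjamini-Hochberg over all tested genes of a contrast). The residual SD of the 584 genes ran from 4.77e-06 to 0.108, with a median of 6.68e-05. The medians of the 120 arrays lay between 7.416 and 7.417.

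Hepatocyte markers were the brightest marker set, with mean levels from 12 to 14.8 for Alb, Apoa1, Ttr, Tat and Apob, and 0 of the 5 were called in MSM. Of the 6 Kupffer cell markers, 4 were lower in MSM (Csf1r, Lyz2, Vsig4 and Clec4f). Their summed level, as the mean over the 6 genes in residual SDs, was −3.42 and −3.27 in the MSM males and −0.31 to −0.266 in the B6 males. In the consomic males it ran from −1.46 to 3.12. The sinusoidal endothelium markers lay at 0.277 and 0.451 in MSM and at 0.223 to 0.284 in B6, a mean over 1 gene called higher (Lyve1), 1 called lower (Clec4g) and 2 not called. The erythroid marker Alas2 was lower in MSM, at −6.2 and −5.79 against 0.0884 to 0.299 in B6 (limma adjusted p = 1.96e-05). The consomic males ran from −6.48 to 1.18, a range that includes the MSM males. Of the 2 tested cholangiocyte markers, Epcam was called higher (limma adjusted p = 0.00414). The other, Sox9, was not called, at −1.26e-05 from B6 (limma adjusted p = 0.808). Stellate cell markers lay at −1.47 and −1.18 in MSM and at −0.216 to 0.0543 in B6, with 0 of 4 called. The consomic males, at −1.62 to 4.12, again included the MSM values. The part of these cell types in the differences of MSM was not tested. In bulk liver, fewer cells of a type and less RNA per cell cannot be told apart. A pair of consomic males stood apart from the rest across the array. B6-Chr9MSM male 1 had 106 of the 584 chromosome 10 genes more than 3 residual SDs from the median of all males and B6-Chr7MSM male 2 had 46, against 131 and 105 in the MSM males and at most 22 in any other male. Results that rest on these males are given with and without them.

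In MSM liver, 164 of the 584 chromosome 10 genes differed from B6, or 28.1%, beside 24.7% of all tested genes. Of these, 97 were higher in MSM (16.6%, against 14.5% of all genes) and 67 were lower (11.5%, against 10.3%). The share was near that of the array as a whole, and ranked 2nd of 20 chromosomes, with Vnn1 and Vnn3 counted, while the share of genes with both MSM males beyond all males with a B6 copy (16.7%) ranked 7th. The differences of the called genes ran from 2.64 to 13.8 residual SDs in size, with a median of 3.67. Over all 584 genes the median difference was 0.466 residual SDs, and over all tested genes 0.592. The split between higher and lower depended on the scaling. With each array centred on its median standardised deviation 63 were higher and 90 lower (41.2% higher, against 59.1% as deposited), or 26.2% called beside 23.4% of all genes. Quantile normalization, which moved the median of all genes to 6.02 residual SDs, gave 472 higher and 18 lower (96.3% higher), or 83.9% called beside 84.8% of all genes. Leaving out any of the 2 MSM or 2 B6 males lowered both counts, and the share of all tested genes called fell as well. In these 4 fits the median difference of the 584 genes stayed at 0.444 to 0.476 residual SDs. Over all tested genes it was 0.524 to 0.617.

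Because every other strain has a B6 chromosome 10, MSM was also set against the mean of the 29 other strains, where 250 of the 584 genes were called (42.8%, against 42.7% of all genes). Both references gave the same direction for 156 genes (26.7%, against 23.3%), 92 of them higher (13.5% of all genes) and 64 lower (9.8% of all genes). In 96 genes called against B6 (16.4%, against 15.6%), both MSM males lay beyond all 58 males with a B6 chromosome 10. In the other 68 called genes the MSM males overlapped with at least 1 of them. The strictest count, genes called against each strain with a B6 copy of the chromosome, was 51 (8.73%, against 8.22%), with 29 higher (4.09% of all genes) and 22 lower (4.13% of all genes).

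**Figure D1:**
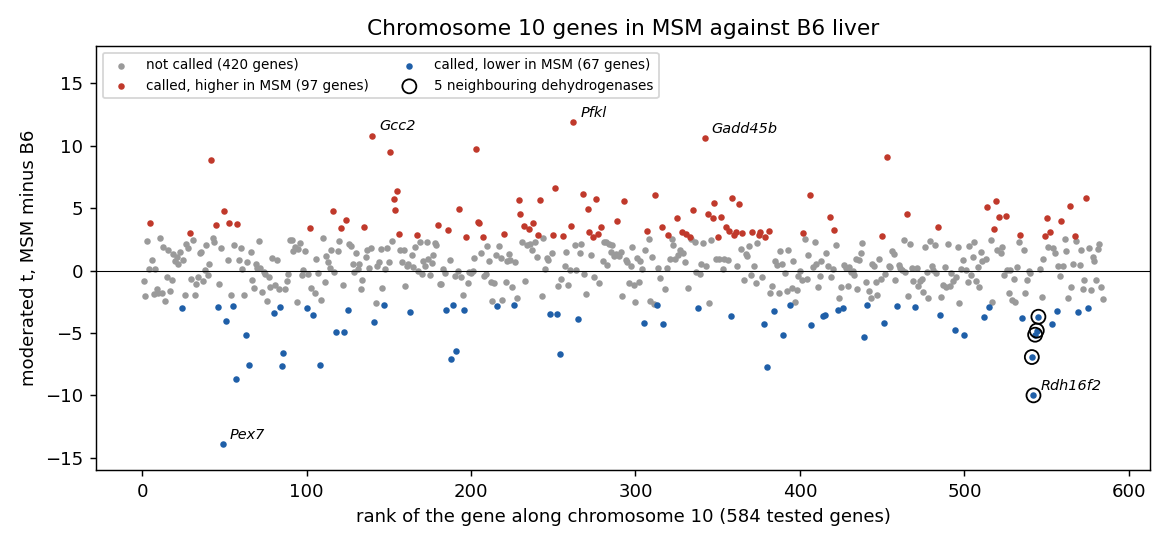
Moderated t statistic of MSM minus B6 (y axis) for the 584 tested chromosome 10 genes in their order along the chromosome (x axis, rank). Each point is a gene, 97 called higher in red, 67 called lower in blue and 420 not called in grey, and the circled points, all below 0, are the 5 neighbouring dehydrogenases.

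Along the chromosome, the tested genes were cut by order into 10 stretches of 58 or 59 genes, and 19% to 37.9% of the genes of a stretch were called. The lowest share, 19%, was from Slc2a12 to Pdss2, where 9 genes were lower and 2 higher. From Tspan15 to Chpt1, 4 successive stretches had 32.8% to 37.9% called, beside 24.7% of all tested genes. The stretch from Chchd10 to Med16 leaned to higher values, with 17 genes higher and 4 lower and a median difference of 1.53 residual SDs. Over all tested genes 14.5% were higher and 10.3% lower, with a median of 0.592 residual SDs. The split between higher and lower depended on the scaling, as given above, and other scalings were not examined by stretch.

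The highest t statistic belonged to Pfkl, the liver subunit of phosphofructokinase, which commits sugar to glycolysis. As deviations from the median of the 58 males with a B6 chromosome 10, its MSM males lay at 0.0147 and 0.0138 and its B6 males at −0.000434 and 5.34e-06. The consomic males ran from −0.00222 to 0.00453, so no male with a B6 chromosome 10 reached MSM. The difference from B6 was 0.0144 ± 0.00121 (SE, n = 2 males each, limma adjusted p = 1.25e-10), or 11.8 residual SDs. Another Pfkl probe set rose by 0.00492 (limma adjusted p = 1.38e-08), and the dimmest, at 1.96e-05, was not called (adjusted p = 0.088).

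Gcc2, which encodes a golgin of the trans-Golgi network, lay at 0.00344 and 0.00323 in MSM and at 0.000454 and 0.000254 in B6. Its difference was 0.00298 ± 0.000277 (SE, limma adjusted p = 1.09e-09). A single consomic male came near, at 0.00209. Gadd45b, a stress-induced regulator of growth arrest and MAP kinase signalling, lay at 0.02 and 0.0309 in MSM and at −0.000956 and −0.000663 in B6, below 0.00891 in all consomic males. All 3 of its probe sets were called higher. Mcu, the pore of the mitochondrial calcium uniporter, lay at 0.00284 and 0.00297 in MSM and at −0.00101 and −0.000308 in B6, with the consomic males below 0.000786.

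Kitl, the ligand of the KIT receptor, lay at 0.000975 and 0.00139 in the MSM males and at −7.46e-05 and 0.000172 in the B6 males. Its difference was 9.02 residual SDs (limma adjusted p = 2.96e-08). Ndufs7, a core subunit of respiratory complex I, lay at 0.000993 and 0.00085 in MSM against 8.04e-06 and −9.19e-05 in B6, and its dimmer probe set was not called (adjusted p = 0.364). Agpat3, an acyltransferase of phospholipid synthesis, differed by 0.000436 ± 7.05e-05 (SE), with another of its 4 probe sets called the same way. The remaining genes among the 12 highest were the long non-coding RNA 4930545H06Rik, Ccdc28a, the RNA-editing enzyme gene Adarb1, Ascc1 of a transcriptional coactivator complex, and the autophagy gene Dram1. Their differences lay between 6 and 9.71 residual SDs.

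The lowest t statistic belonged to Pex7, the receptor that brings enzymes with a type 2 targeting signal into peroxisomes. Its MSM males lay at −0.00255 and −0.00253, its B6 males at 0.000262 and 0.000356, and the consomic males between −0.000737 and 0.000365. The groups did not overlap, and the difference was −0.00285 ± 0.000204 (SE, limma adjusted p = 3.18e-12), or −13.8 residual SDs. No other Pex7 probe set was tested.

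Aldh8a1, an aldehyde dehydrogenase of the kynurenine pathway, lay at −0.0015 and −0.00158 in MSM and at 0.00043 and 0.000273 in B6. Its other probe set was also lower, by −0.00838 (limma adjusted p = 1.85e-12), but under quantile normalization Aldh8a1 turned to higher (0.00245). Txnrd1, the cytosolic thioredoxin reductase, lay at −0.0364 and −0.0366 in MSM and at 0.00439 and 0.00168 in B6, a difference of −7.65 residual SDs. A dimmer Txnrd1 probe set gave 0.00101 (adjusted p = 0.331), so its probe sets disagreed. Enpp3, a cell-surface nucleotide pyrophosphatase, lay at −0.0124 and −0.0159 in MSM and at 0.00292 and 0.00295 in B6, and all 3 tested probe sets were called lower. A consomic male reached −0.0136, within the range of the MSM males.

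Slc25a16, a carrier of the inner mitochondrial membrane, lay at −0.0044 and −0.00412 in MSM against 0.00089 and 0.00114 in B6. Hdac2, a histone deacetylase, lay at −0.00277 and −0.0024 against 0.000147 and −3.77e-05. The other genes among the 12 lowest were Nt5dc1, Cep57l1, Pttg1ip, Pbld2 and the dehydrogenases Rdh16f2 and Rdh9. The brightest probe set of Cep57l1 was called, and its next, at 9.3e-06, was not, and under quantile normalization it turned to higher (0.000619). Of these 24 genes, 23 had both MSM males beyond all 58 others and differed from each of the 29 other strains, the exception being Enpp3. All 24 were called in each of the 4 fits that left out 1 MSM or B6 male. Another tested probe set was present for 11 of the 24, and in 8 of the 11 it was called in the same direction.

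**Figure D2:**
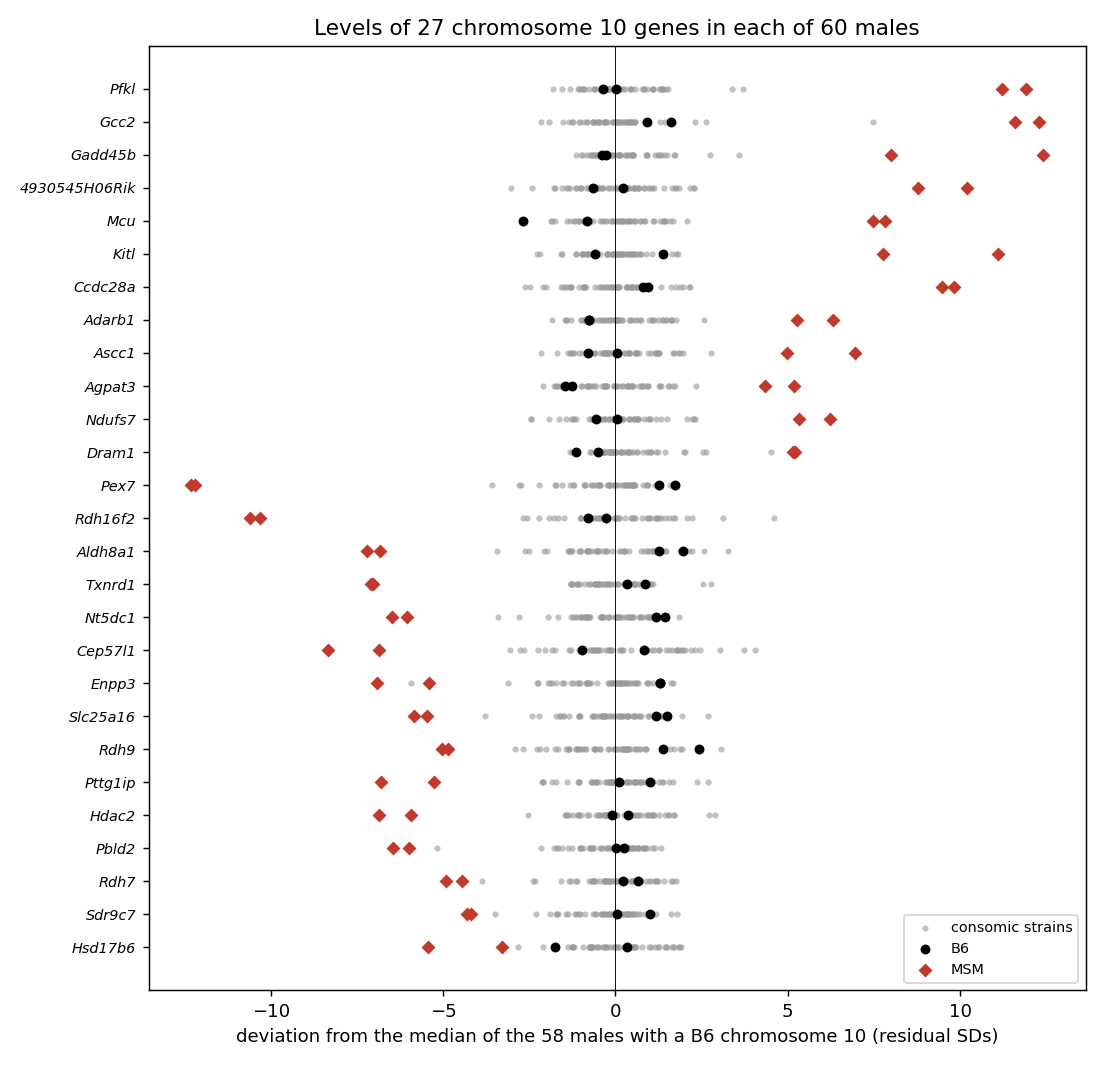
Deviation of each of 60 males (x axis, in residual SDs, from the median of the 58 males with a B6 chromosome 10) for the 12 chromosome 10 genes with the highest t and the 12 with the lowest t in MSM against B6, and below them 3 further dehydrogenases (y axis). Red diamonds are the MSM males, black circles the B6 males and grey points the consomic males, and except in Enpp3 the MSM males lie outside all the others.

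Array probes were designed on a reference mouse sequence, and a base difference of MSM under a probe can alter its signal. Whether this contributes was not tested, and the measurement that bears on it is the agreement between probe sets of a gene. Of the 164 called genes, 69 had another tested probe set, and 33 of the 69 had one called in the same direction and 2 one called in the opposite direction. Of the 98 other probe sets of called genes, 82 had the same sign, beside 179 of 267 for genes that were not called. For genes called higher this was 54 of 59, and for genes called lower 28 of 39, where both opposite calls fell.

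The dehydrogenases of retinol and steroids stood together. Of 8 on the array 6 were tested, and 5 of these were lower in MSM and none higher, beside 10.3% of all genes lower. Their median difference was −4.94 residual SDs, against 0.592 over all tested genes. The 5 lower genes, Rdh9, Rdh16f2, Rdh7, Sdr9c7 and Hsd17b6, are adjacent in the order of tested genes, at ranks 541 to 545 (Rdh1 and Rdh16, of the same region, were too dim to test). Hsd17b6 was named after its values were seen, as the last member of the run.

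Rdh16f2, a relative of the retinol dehydrogenase Rdh16, had the largest difference on the deposited scale of all called chromosome 10 genes. Its MSM males lay at −0.714 and −0.69, its B6 males at −0.0533 and −0.0192, and the 56 consomic males between −0.18 and 0.309. The mean level was 7.23 in MSM, below the 7.417 used in the filter on low signal, and 7.89 in B6. The difference was −0.666 ± 0.0666 (SE, n = 2 males each, limma adjusted p = 4.9e-09). Rdh9, another retinol dehydrogenase, lay at −0.0269 and −0.0279 in MSM and at 0.0135 and 0.00771 in B6. Its difference was −0.038 ± 0.00548 (SE, limma adjusted p = 4.14e-06), and its probe set carries the suffix of sets that can match several transcripts. Rdh7, a liver retinol dehydrogenase, lay at −0.000159 and −0.000145 in MSM and at 7.31e-06 and 2.09e-05 in B6, with the lowest consomic male at −0.000125.

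Sdr9c7, a short-chain dehydrogenase, lay at −0.0155 and −0.016 in MSM and at 0.000136 and 0.0037 in B6 (limma adjusted p = 0.000576). Hsd17b6, which acts on hydroxysteroids and retinol, lay at −0.0808 and −0.0487 in MSM and at 0.00499 and −0.0258 in B6, with a difference of −0.0543 ± 0.0147 (SE, limma adjusted p = 0.00673). In all 5 genes both MSM males were below all 58 others. Rdh5, the tested member outside the run, at rank 582, had MSM males at 0.000234 and 0.000151 and B6 males at −0.000125 and −0.000139, and was not called (adjusted p = 0.113). With each array centred, all 5 stayed lower. Under quantile normalization 4 stayed lower, Rdh7 came to a difference of 0, and Rdh5 was called higher. Hsd17b6 lost its call without MSM male 1 (adjusted p = 0.142) and without B6 male 1 (adjusted p = 0.15). The genes are close paralogs, so signal may be shared between their probe sets. Rdh9, Rdh16f2 and Rdh7 have only 1 probe set each, so agreement between probe sets could not be examined for them. Over the 29 strains with a B6 chromosome 10 the strain means of the 5 genes were loosely related, with Pearson r from −0.121 to 0.501 over the 10 pairs and the highest between Rdh16f2 and Rdh7.

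The counts in the lists that follow stand beside 14.5% of all tested genes called higher, 10.3% called lower and a median difference of 0.592 residual SDs. Among 9 tested genes of glutathione, sulfate and redox metabolism 2 were higher and 2 lower. Gstt2 and Gstt4, theta-class glutathione transferases, rose by 4.48 and 6.05 residual SDs. Ddt, a tautomerase, fell by 2.81 residual SDs and lost its call in each fit without 1 male, and Txnrd1 is given above. Of 13 genes of amino acid and one-carbon metabolism 2 were higher and 4 lower. Pdxk, pyridoxal kinase, had MSM males at 0.00312 and 0.0023 and B6 males at −7.29e-07 and −0.000599 (limma adjusted p = 0.000481). Lower genes included Aldh8a1, the D-aspartate oxidase gene Ddo (adjusted p = 0.0253) and Amdhd1 of histidine breakdown (adjusted p = 0.0269). Ddo was called in 2 and Amdhd1 in 1 of the 4 fits without 1 male, and under quantile normalization Ddo, Amdhd1 and Ddt turned to higher. The urea cycle gene Arg1 lay at 2.52e-06 and 3.73e-05 in MSM and at −3.38e-06 and 0.000167 in B6 and was not called (adjusted p = 0.627).

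Of 17 genes of sugar and mitochondrial energy metabolism, 4 were higher and 2 lower, and the median difference was 2.06 residual SDs, against 0.592 over all tested genes. Besides Pfkl and Mcu, Slc25a3, the mitochondrial phosphate carrier, rose by 4.35 residual SDs (limma adjusted p = 0.00183). With each array centred 3 were higher and 2 lower, and under quantile normalization 11 were higher and 1 lower. Of 16 lipid, sterol, bile acid and peroxisome genes 3 were higher and 4 lower. Creb3l3, a liver transcription factor of fasting lipid metabolism, had MSM males at 0.000891 and 0.000924 and B6 males at 0.000318 and −2.08e-05 (limma adjusted p = 0.00224). Apof, an apolipoprotein, fell by 4.29 residual SDs (limma adjusted p = 0.00171), while Nr1h4, the bile acid receptor, was not called (adjusted p = 0.791).

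Stress response and clock genes had 5 of 14 members higher and 0 lower, beside 14.5% and 10.3% of all genes. The median difference of the 14 was 0.297 residual SDs, below the 0.592 over all tested genes. Ddit4, an inhibitor of mTORC1 induced by stress and glucocorticoids, lay at 0.0897 and 0.143 in the MSM males and at 0.0132 and 0.00693 in the B6 males, and no consomic male exceeded 0.0725. Its difference was 0.106 ± 0.0185 (SE, limma adjusted p = 6.45e-05), the largest rise on the deposited scale among the called genes. Map3k5, a stress-activated kinase, rose by 4.72 residual SDs (limma adjusted p = 0.000636), and Derl3, of endoplasmic reticulum protein degradation, by 3.58, with its call lost in 2 of 4 fits without 1 male. With each array centred 4 were higher and 1 lower. Of 11 hormone and growth factor genes 3 were higher and 2 lower. Sgk1, a kinase induced by glucocorticoids, lay at 0.0213 and 0.0336 in MSM and at 0.00469 and −1.92e-05 in B6 (limma adjusted p = 0.00638). The highest consomic male, at 0.0291, lay between the MSM males, and the call was lost in 2 of 4 fits without 1 male. Erbb3, a receptor of neuregulins, fell by 3.28 residual SDs and Gna11, a G protein subunit, rose by 3.05, and they were called in 1 and 2 of the 4 such fits.

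Cell cycle genes had 0 of 11 members higher and 3 lower (10.3% of all genes were lower), with Cdk2, Dna2 and Zwint at adjusted p from 0.0253 to 0.0414, and under quantile normalization 9 were higher and 0 lower, with Cdk2 and Dna2 turned. Without MSM male 2 only 1 of the 11 was called, and without any other of the 2 MSM and 2 B6 males 0 were. In the extracellular matrix list 1 of 12 genes was lower, Col18a1, and it was called in none of the fits without 1 male. Of 9 immune genes 1 was lower, Lyz2, the lysozyme of macrophages, with MSM males at −0.0364 and −0.0367 and B6 males at −0.00387 and −0.00123. Lyz2 did not keep its call in each fit without 1 male, where its difference ran from −0.0353 to −0.0327. It moved with 3 other Kupffer cell markers, and the part of that cell type in the result was not tested. Of 8 ribosome and translation genes 1 was higher, Rpl41, which was called in none of the fits without 1 male and turned to lower under quantile normalization (−0.000641).

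**Figure D3:**
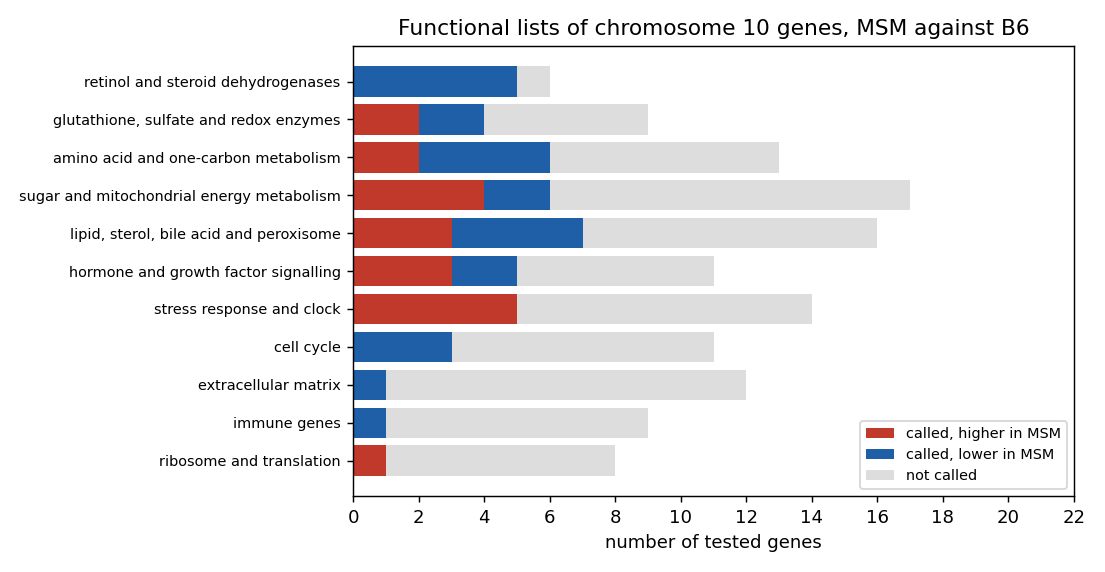
Number of tested chromosome 10 genes (x axis) in 11 functional lists (y axis) that were called higher in MSM than B6 (red), called lower (blue) or not called (grey). All called retinol and steroid dehydrogenases were lower, and all called stress response and clock genes were higher.

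Distant changes were sought in the 28 consomic strains. A gene was counted when it was called with the same sign against B6 and against the mean of the other 27 consomic strains. Of 16352 gene and strain pairs 13 met this, or 0.0795%, beside 0.0593% of all pairs off the substituted chromosomes. They fell in 7 strains, with 8 higher and 5 lower, and the other 21 strains had none. Against B6 alone 33 pairs were called (0.202%, against 0.131%), and against the other consomic strains alone 59 (0.361%, against 0.344%). Of the 584 genes, 13 had a distant change in a consomic strain. Among the 164 genes that differed between MSM and B6, 3 had one and 161 had none, near the share over all 584. Without B6-Chr9MSM male 1 and B6-Chr7MSM male 2 the count was again 13, of which 9 were the same pairs. Under quantile normalization none of the 13 kept its call, 10 with the call lost and 3 turned in direction.

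A moderated F test over the strains with a B6 copy of a gene's chromosome, run after the data had been seen, called 2 of the 584 genes (0.342%, against 0.134% of all genes). They were Oit3 (limma adjusted p = 0.00603) and Rps26 (limma adjusted p = 0.0192). Both were called again without the males that stood apart, where 3 of 584 genes were called (0.514%, against 0.226%).

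**Figure D4:**
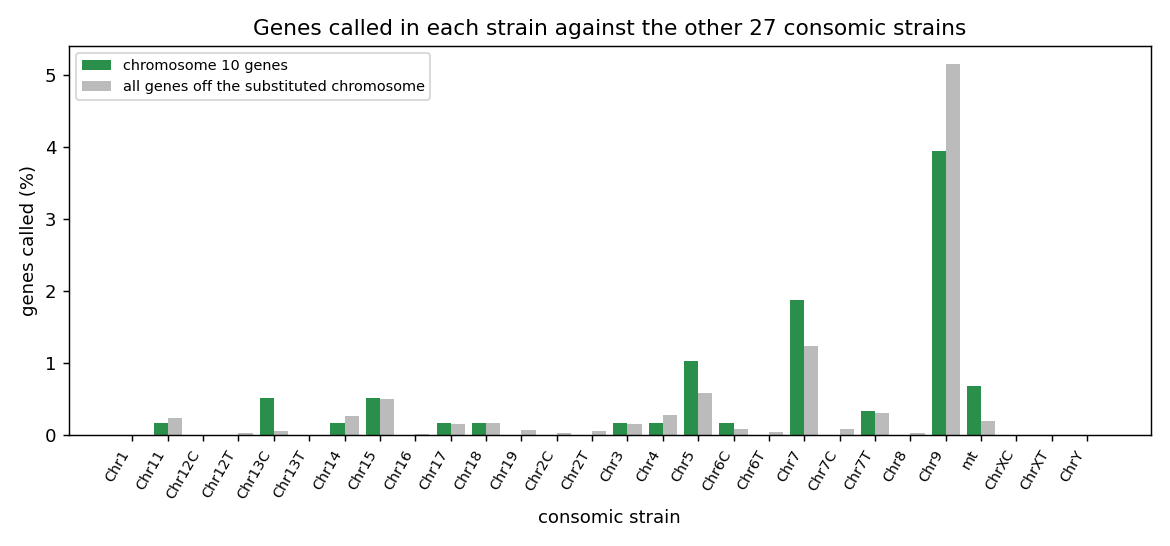
Percent of genes called in each consomic strain against the mean of the other 27 (y axis), for the 584 chromosome 10 genes (green) and for all tested genes off the substituted chromosome (grey). The highest bars, 3.94% and 5.14%, are in B6-Chr9MSM, which holds a male that stood apart.

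Oit3, a gene of liver sinusoidal endothelium, was lower in the strain with MSM mitochondrial DNA. Its B6-mtMSM males lay at −0.000368 and −0.000333, its B6 males at 6.01e-05 and 9.7e-05, and all other consomic males between −0.000152 and 0.000188, so the strain did not overlap with any other. The difference from the other consomic strains was −0.000355 ± 3.97e-05 (SE, limma adjusted p = 5.81e-06) and from B6 −0.000429 (limma adjusted p = 0.00012). MSM, the source of that mitochondrial DNA, lay at 0.000126 and 0.000108. Oit3 is itself 1 of the 4 endothelium markers, and the only 1 of them called in this strain. The summed level of the 4, Oit3 included, was −3.31 and −3.18 residual SDs in the B6-mtMSM males. In the other consomic males it was −2.35 to 1.64. The part of that cell type in the result was not tested. Of the 13 pairs it was the only one called in all 4 fits that left out 1 male of the strain or of B6, and it lost its call under quantile normalization (−0.000243 from the other consomic strains, with 1 as the larger limma adjusted p of the 2 references).

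Ptprb, the vascular endothelial protein tyrosine phosphatase, was also lower in B6-mtMSM, at −0.000609 and −0.000594, beyond the other consomic males (from −0.000315 to 0.000613). Its adjusted p was 0.00104 against the other consomic strains and 0.00876 against B6 (limma), and 3 of the 4 fits without 1 male lost the call. Smarcc2, a subunit of SWI/SNF chromatin remodelling complexes, was higher there, at 0.000284 and 0.000204 against −0.00012 and −8.23e-05 in B6, and all 4 such fits lost the call. These 3 genes were 3 of 584 in that strain, beside 16 of 11948 genes (0.134%), which include them.

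Rps26, a protein of the small ribosomal subunit, was higher in B6-Chr13CMSM. Its males lay at 0.000348 and 0.0003, its B6 males at 1.71e-05 and 6.87e-05, its MSM males at 8.51e-05 and 4.27e-05, and no other consomic male exceeded 0.000124. The difference from the other consomic strains was 0.000316 ± 3.14e-05 (SE, limma adjusted p = 7.6e-08) and from B6 0.000281 (limma adjusted p = 0.000724). Without 1 male of the strain or 1 male of B6 (male 1 in each case) the call against both references was lost, with adjusted p up to 0.0707, and under quantile normalization the difference from the other consomic strains was 0. The strain with the other part of the chromosome, B6-Chr13TMSM, lay below B6 by 4.07e-05 and differed from B6-Chr13CMSM (limma adjusted p = 5.55e-05).

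Rpl41, a small protein of the large ribosomal subunit, was higher in the same strain, at 0.000792 and 0.000858 against −0.000302 and −0.000103 in B6. It differed from B6-Chr13TMSM by 0.00092 ± 0.000178 (SE, limma adjusted p = 0.0102). It was called in 1 of the 4 fits without 1 male, and under quantile normalization the difference from the other consomic strains turned to −9.01e-05. Its dimmer probe sets had the same sign and were not called (adjusted p of 0.151 and 0.0691 against the other consomic strains). Ribosomal protein genes have many near-identical processed copies, so their probe sets may read several loci. In that strain 3 of 11528 genes off the substituted chromosome were counted (0.026%), and these 2 are among the 3.

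In B6-Chr5MSM, Cep83, a centriole protein gene, lay at 0.000296 and 0.000227 against −9.68e-06 and −4.65e-05 in B6 (0.242% of all genes were counted in that strain). Mif, the macrophage migration inhibitory factor, lay at 0.000259 and 0.000543 there against −0.000254 and −0.000261. Cep83 lost its call in each of the 4 fits without 1 male and Mif in 3. In B6-Chr7MSM (0.318% of all genes), the sestrin gene Sesn1 and Aldh8a1 were lower. Aldh8a1 lay at −0.000552 and −0.000571 there, between B6 and the MSM males, and lost its call in all 4 fits without 1 male. Without the males that stood apart, of which B6-Chr7MSM male 2 is one, neither was called (adjusted p = 0.084 and 0.24).

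Enpp3 was lower in B6-Chr7TMSM, where it was the 1 gene counted of 11012 off the substituted chromosome (0.00908%). A male there, at −0.0136, reached the level of MSM, and the other, at −0.00294, did not leave the range of the other consomic males. The call was lost without the first of them, without either B6 male, and held in 1 of 4 fits. In the same male the erythroid marker Alas2 lay at −6.48 residual SDs and the Kupffer cell markers at 2.35, against −0.00179 and 0.0577 in the other male, and their part in the result was not tested. Cstb, an inhibitor of cathepsins, and Dctn2, a dynactin subunit, were higher in B6-Chr9MSM (0.612% of all genes). Cstb lay at 0.0113 in male 1 and 0.000672 in male 2, and only the male that stood apart exceeded the other consomic males. Without it neither Cstb nor Dctn2 was called. Its Kupffer cell markers lay at 3.12, its stellate cell markers at 4.12 and the adipocyte marker Retn at −4.36 residual SDs, against 0.666, −0.0781 and −0.582 in male 2, and their part in the result was not tested. Hmg20b, a component of a histone demethylase complex, was higher in B6-Chr18MSM (0.0514% of all genes), at 6.32e-05 and 9.28e-05 against −2.36e-05 and −4.57e-05, and lost its call in all 4 fits. Of the 13 genes, Aldh8a1, Enpp3 and Rpl41 also differed between MSM and B6, each in the direction of the consomic strain. Such a difference was called in 28.1% of the 584 genes and 24.7% of all tested genes, so the overlap was near these shares. The comparisons of MSM and of the consomic strains with B6 share the B6 males.

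**Figure D5:**
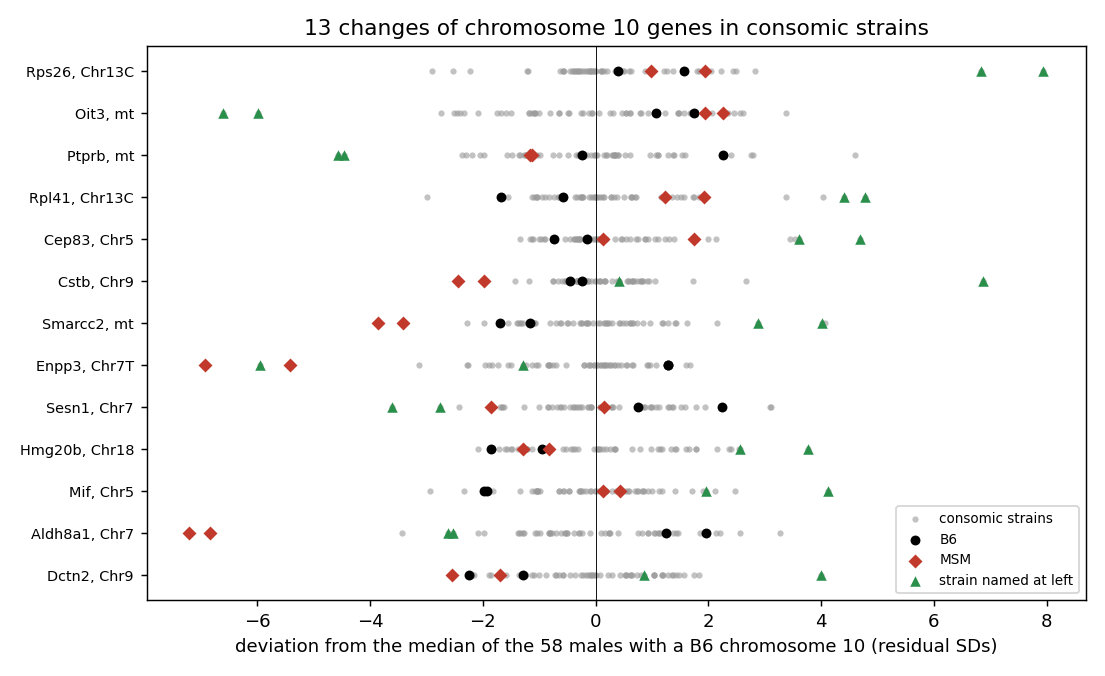
Deviation of each male (x axis, in residual SDs, from the median of the 58 males with a B6 chromosome 10) for the 13 gene and strain pairs counted as distant changes (y axis, gene and strain). Green triangles are the males of the strain named, red diamonds MSM, black circles B6 and grey points the other consomic males. In 7 pairs both males of the strain lie beyond all other consomic males, Rps26 and Oit3 furthest.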

How the data were processed

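Liver RNA of 60 males of 30 strains was measured on 120 arrays. Per the submitters' labels, total RNA was biotin-labelled and hybridised to Affymetrix Mouse Genome 430 2.0 arrays. The authors deposited 1 log2 signal for each probe set and array, and these were taken as already normalized. The array medians ran from 7.41583 to 7.4168. That span is wider than the median residual SD of all tested genes, 5.95e-05, so the arrays did not coincide on the scale of the tests. Quantile normalization moved the median difference of MSM from B6 over all tested genes from 0.592 to 6.02 residual SDs. Which scaling is right was not tested. The base of the logarithm was read from the range of 6.34 to 14.8, and neither the normalization nor the summary method is named in the sources used. The number of arrays limits the precision.

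Of 45037 probe sets, 34945 had 1 gene symbol, 932 had several and 9160 were not in the annotation table. Genes (34741 probe sets matched by gene ID, 204 not) were placed with RefSeq GRCm38.p6. Each gene was represented by its brightest probe set on average, and a gene was tested if at least 2 males exceeded the median of all values, 7.417. Each male entered as the mean of its 2 arrays. The model in limma 3.58.1 (R 4.3.3) had a mean for each of the 30 strains (30 residual and 0.592 prior degrees of freedom), and p-values had Benjamini-Hochberg adjustment per contrast. Nothing in the labels says how the males of a strain relate, so p-values measure the spread between these animals. The fit was checked on simulated data.

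Genes are named if called in MSM against B6 and the 29 other strains with both MSM males beyond both B6 males (12 highest and 12 lowest t), in a distant change, or among the 4 called members with the largest t of a list. The genes, lists and rules were chosen with earlier results of these data known. Uncalled genes are named for their role, after their values were seen. Animal numbers are unique to a strain and pair no samples. Alternatives were other scalings, filters, probe sets, references and blocks, and leaving out males. Promoters, read with Python 3.11.15, matched 495 of the 584 tested genes.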

Additional observations from a re-analysis of the deposited data

Results flagged for a closer look

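Differences between strains at an adjusted p below 0.05 are listed here for genes with a distant change. The genes and strains were picked for those changes in the same males, so these contrasts are not independent of that choice. Each p comes from a direct contrast of the strains in limma, adjusted over all tested genes. With 2 males per strain, single outlying males were not sought within strains here.

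For 4 genes the consomic strain differed from MSM and the 2 lay on opposite sides of B6, although MSM itself was not called against B6 (adjusted p of 0.645 for Oit3, 0.0998 for Smarcc2, 0.171 for Cstb and 0.819 for Dctn2). Oit3 in B6-mtMSM was −0.000467 ± 5.52e-05 (SE) from MSM (limma adjusted p = 1.22e-07). Smarcc2 in the same strain was 0.000502 ± 7.03e-05 above MSM (limma adjusted p = 2.55e-06). Cstb in B6-Chr9MSM was 0.00957 ± 0.00162 above MSM (limma adjusted p = 4.04e-05) and Dctn2 in that strain 0.000186 ± 4.05e-05 (limma adjusted p = 0.000773), both carried by the male that stood apart.

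For 3 genes, strains that carry MSM alleles on different extents of the same chromosome differed. Rps26 was 0.000322 ± 4.36e-05 higher in B6-Chr13CMSM than in B6-Chr13TMSM (limma adjusted p = 5.55e-05). Rpl41 was 0.00092 ± 0.000178 higher in the same contrast (limma adjusted p = 0.0102). Sesn1 in B6-Chr7MSM was −0.000388 ± 8.71e-05 from B6-Chr7TMSM (limma adjusted p = 0.0408) and did not pass against B6-Chr7CMSM (limma adjusted p = 0.84).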

How the results depend on the processing

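With 2 males per strain, differences of MSM from B6 under 2.64 residual SDs were not called, and 12 of the 13 distant changes lost their call in at least 1 fit without a male. Among the 13, the values of Cstb, Dctn2 and Enpp3 depended most on the male left out. Leaving out an MSM or B6 male gave 51 to 59 genes higher and 34 to 42 lower in MSM, and 32 of the 47 named genes were called in all 4 such fits. The other 15 lost their call in at least 1. For distant changes, which fell to 2 and 4 pairs without B6 males 1 and 2, leaving out a male of the strain gave 36 and 106 pairs, where a lone male is assumed to vary like the other strains. The count therefore ran from 2 to 106. Neither the filters, the trended prior nor leaving out the males that stand apart (107 higher, 75 lower, 13 distant) moved a count beyond 1.5 times.

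Quantile normalization gave 472 higher, 18 lower and 62 distant changes, and 33 of the 47 named genes but none of the 13 distant changes kept their call. It reversed Aldh8a1 (0.00245), Cep57l1 (0.000619), Ddt (0.00147), Ddo (0.00144), Amdhd1 (7.38e-05), Cdk2 (0.000917), Dna2 (0.00233) and Rpl41 (−0.000641) in MSM, and Rpl41 in B6-Chr13CMSM (−9.01e-05), Mif in B6-Chr5MSM (−0.000145) and Aldh8a1 in B6-Chr7MSM (0.000794). Under it the median difference of all genes was 6.02 residual SDs, against 0.592 as deposited. Centring each array gave 63 higher and 90 lower, with 45 of the 47 named genes called. The next brightest probe set was used where a gene had several, while genes with a single probe set kept the same one. Of the named genes tested there, 29 kept their call and 8 lost it. Txnrd1 (0.00101) and Cep57l1 (9.3e-06) were reversed, and the cause was not tested. With arrays as units and the male as a random block 82 distant pairs were called, and with the array number as a replicate block 74, against 13 with averaged arrays. Against the 29 other strains 144 were higher and 106 lower (42.8% called, beside 42.7% of all genes). A fit of B6 and MSM alone, with fewer males, gave 35 higher and 42 lower (13.2% called, beside 11% of all genes). It kept 24 named genes. Distant changes numbered 33 against B6 alone, 59 against the other consomic strains alone, and 4 at an adjusted p below 0.01. The share over all gene and strain pairs was not computed for the distant counts of 62, 82, 74 and 4.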
